A study of Homo sapiens with 12 samples.

Results

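The response to copper was compared between Ishikawa and KLE cells, which are established human endometrial cancer cell lines, using all 12 of the 12 RNA libraries. Each line was left untreated (a group the labels also call vehicle) or was given 200 µM CuCl2 for 24 h, with 3 libraries in each of the 4 groups, and the labels call the libraries of a group independent biological replicates. Neither line carries an engineered allele per the labels, and each line stands for 1 tumour, so that a difference between them is a difference between these lines. Library totals ran from 14050275 to 25057003 estimated counts.

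The response of a gene is its log2 fold change, copper over control, and the response difference is the KLE response minus the Ishikawa response. These were estimated for 13663 genes of 20332 in the table with edgeR's quasi-likelihood test, and a value was called at a Benjamini-Hochberg adjusted p under 0.05. The response difference was called for 6206 genes, which is 45.4% of those tested. Of these, 2973 had a response called in Ishikawa and not in KLE, and 415 in KLE and not in Ishikawa. A further 2236 changed in the same direction and more in Ishikawa, and 154 in the same direction and more in KLE. The genes that changed in the same direction are left aside here. The genes described moved in opposite directions, or in one line while the other line was held to a small interval.

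A gene was counted as opposite where the response difference and both responses were called, the signs differed, and both responses reached 0.25 in size. There were 38 such genes up in Ishikawa and down in KLE (0.278% of genes tested) and 100 down in Ishikawa and up in KLE (0.732%), 138 or 1.01% in all. A gene was counted as moving in one line where that line's response was called and reached 1 in size, the other line's was not called, and the 95% interval of the other line's response lay within -0.5 and 0.5. In Ishikawa alone 53 genes rose (0.388%) and 115 fell (0.842%), and in KLE alone 1 rose (0.00732%) and 5 fell (0.0366%), 174 or 1.27% in all. The opposite and one-line genes together were 312, or 2.28% of genes tested. A further 10 genes moved in Ishikawa and were near silent in KLE, at under 1 CPM (counts scaled to library size) in both KLE groups (0.0732%), and 2 moved in KLE and were near silent in Ishikawa (0.0146%). These near-silent genes also had a response of at least 1 in size and a mean of at least 5 CPM in a group of the moving line. The one-line genes had a mean of at least 1 CPM in a group of the other line. The size minimum and the interval limit together made the one-line classes far smaller than the 2973 and 415 genes called in one line. Of those genes, 492 in Ishikawa and 50 in KLE had a response of at least 1 in size. The scatter of the responses in both lines shows the small size of the opposite classes.

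**Figure D1:**
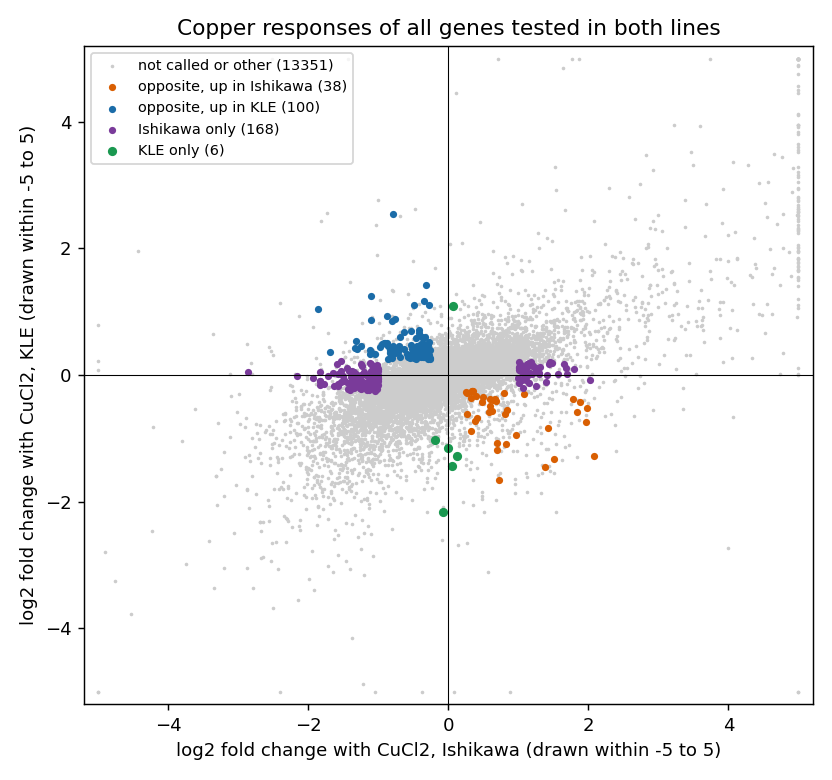
Each point is 1 of the 13663 genes tested, with its log2 fold change in Ishikawa on the x axis and in KLE on the y axis; values beyond 5 are drawn at the edge. The 100 genes up in KLE lie in the upper left quadrant, with median responses of -0.48 in Ishikawa and 0.40 in KLE. The 38 up in Ishikawa lie in the lower right one, with medians of 0.68 and -0.53. The genes that moved in one line lie along an axis, with 168 for Ishikawa and 6 for KLE.

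The opposite responses were modest. Their median was 0.68 in Ishikawa and -0.53 in KLE for the 38 genes, and -0.48 and 0.40 for the 100 genes. The treated libraries lay beyond the untreated ones in both lines for 34 of the 38 genes and 92 of the 100. Over all genes tested they did so in both lines, in either direction, for 44.5% (71.9% in Ishikawa and 55.3% in KLE). The classes were chosen by called responses in these same libraries, so the separation follows largely from the rule and is no separate evidence. The smaller of the 2 responses reached 0.5 for 16 and 14 genes, and 1 for 3 and 2. Just inside the minimum lay LUC7L3, GDF11 and DNMT3B, with a smaller response of 0.251, 0.253 and 0.254. Just outside lay ICAM1, DOP1B and UACA at 0.249, 0.249 and 0.246.

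Copper is an essential metal that is toxic in excess, because it takes part in redox cycling and displaces other metals from proteins. Cells buffer it with metallothioneins, small cysteine-rich proteins whose genes are switched on by metals, and respond to the damage with heat shock, antioxidant and amino acid stress programmes. A low supply of oxygen stabilises the HIF transcription factors, which bind a short DNA core and raise genes of glycolysis, and copper has been tied to that pathway in other cells. Summed metallothionein transcripts served as a check of the copper label: they were 12.5 to 21.7 CPM in untreated and 1047 to 1058 CPM in treated Ishikawa libraries, and 700 to 779 and 3298 to 3441 CPM in KLE. All 6 treated libraries lay above the untreated libraries of their own line. The epithelial markers EPCAM, CDH1, KRT8 and KRT18 had reads in every library, as did PAX8, a factor of the Mullerian epithelium, at 228 to 455 TPM.

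Genes of the hypoxia and glycolysis list fell in Ishikawa and rose in KLE more often than the reverse. Of its 28 members tested, 5 rose and 15 fell in Ishikawa, beside 31.4% and 39.9% of all genes tested, while 14 rose and 5 fell in KLE, beside 21.2% and 21.3%. The response difference was called as higher in KLE for 18 members and lower for 1, against 24.6% and 20.8% of all genes tested. The median response was -0.28 in Ishikawa and 0.19 in KLE, beside -0.07 and -0.00 over all genes. BNIP3, LDHA and NDRG1 were opposite, and PFKFB4 moved in Ishikawa alone.

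BNIP3, which encodes a mitochondrial protein of mitophagy, lies at chr10:131966455-131982013 (GRCh38, as all coordinates here). Its untreated Ishikawa libraries had 47.3, 49.5 and 47.2 CPM and the treated ones 14.2, 15 and 15.3 CPM. In KLE the values were 36, 34.1 and 36.4 CPM untreated and 40.7, 46.7 and 49 CPM treated. The groups did not overlap in either line, with copper low in Ishikawa and high in KLE. Its response was -1.69 ± 0.08 (SE) in Ishikawa and 0.36 ± 0.07 in KLE, and the response difference was 2.05 ± 0.10 (edgeR adjusted p = 7.8e-13).

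LDHA, the enzyme that turns pyruvate into lactate, lies at chr11:18394388-18408425. It had 843, 798 and 867 CPM in untreated and 662, 637 and 669 CPM in treated Ishikawa libraries. In KLE it had 831, 898 and 860 CPM untreated and 1194, 1138 and 1144 CPM treated. The lines started from the same range and moved apart. The response was -0.35 ± 0.04 in Ishikawa and 0.43 ± 0.04 in KLE, a difference of 0.77 ± 0.05 (edgeR adjusted p = 1.2e-10).

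Since LDHA and BNIP3 moved together, the stretch before each gene is shown as RefSeq gives it (GRCh38.p14). It was limited to bases outside the annotated span of the gene. Capitals mark ACGTG and GCGTG, the core of the hypoxia response element, on either strand; CACGTG holds ACGTG on both strands and is also an E-box.
LDHA, chr11:18394313-18394387, plus strand: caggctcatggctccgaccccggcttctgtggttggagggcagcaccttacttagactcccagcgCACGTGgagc
BNIP3, chr10:131982014-131982173, minus strand: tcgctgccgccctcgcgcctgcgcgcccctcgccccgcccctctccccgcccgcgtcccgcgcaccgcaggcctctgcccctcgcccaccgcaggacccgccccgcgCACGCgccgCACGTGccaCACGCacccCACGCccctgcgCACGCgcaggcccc
The LDHA stretch of 75 bases held 2 matches and the BNIP3 stretch of 160 bases held 6. In the 250 bases before the start, either form was present in 16 of the 24 hypoxia list promoters matched (66.7%), in 57.0% of the promoters of genes tested, and in 43.1% of 27305 RefSeq promoters. For ACGTG alone the shares were 45.8%, 23.0% and 18.7%. Among the 82 matched promoters of genes up in KLE and down in Ishikawa, 54.9% held either form and 14.6% held ACGTG. This motif was added after the values were seen, and a match describes the letters only.

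NDRG1, a stress-responsive gene of differentiation, had 25.3, 25.8 and 27 CPM in untreated and 13.5, 14.2 and 13.5 CPM in treated Ishikawa cells. It had 186, 169 and 172 CPM in untreated and 236, 259 and 254 CPM in treated KLE cells. KLE started far above Ishikawa, and copper widened that gap. The responses were -0.92 ± 0.07 and 0.51 ± 0.05, with a difference of 1.43 ± 0.09 (edgeR adjusted p = 1.1e-11). PFKFB4 at chr3:48517684-48562015, a regulator of glycolytic flux, fell from 28.8, 33.6 and 28.6 CPM to 9.78, 11.1 and 8.12 CPM in Ishikawa. Its KLE values were 13.9, 13.2 and 13.9 CPM untreated and 12.5, 14.5 and 14.8 CPM treated, with a 95% interval of the response from -0.20 to 0.25.

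Other members showed how mixed the list was. EGLN1, a prolyl hydroxylase that marks HIF for destruction, had responses of -0.31 ± 0.05 and 0.19 ± 0.05 in Ishikawa and KLE. PGK1 of lower glycolysis had -0.30 ± 0.04 and 0.13 ± 0.04; both genes had called responses of opposite sign, below the size minimum in KLE. HK2 and PFKP rose in KLE, by 0.47 ± 0.05 and 0.39 ± 0.05, with Ishikawa values of -0.05 ± 0.05 and 0.03 ± 0.05 that were not called. SLC2A1, the glucose transporter, went the other way and fell more in KLE (-0.37 ± 0.04, against -0.10 ± 0.04). VEGFA, a HIF target, was not called in either line (0.12 ± 0.06 and 0.06 ± 0.06). The plot of the list shows most members with the KLE point to the right of the Ishikawa point.

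**Figure D2:**
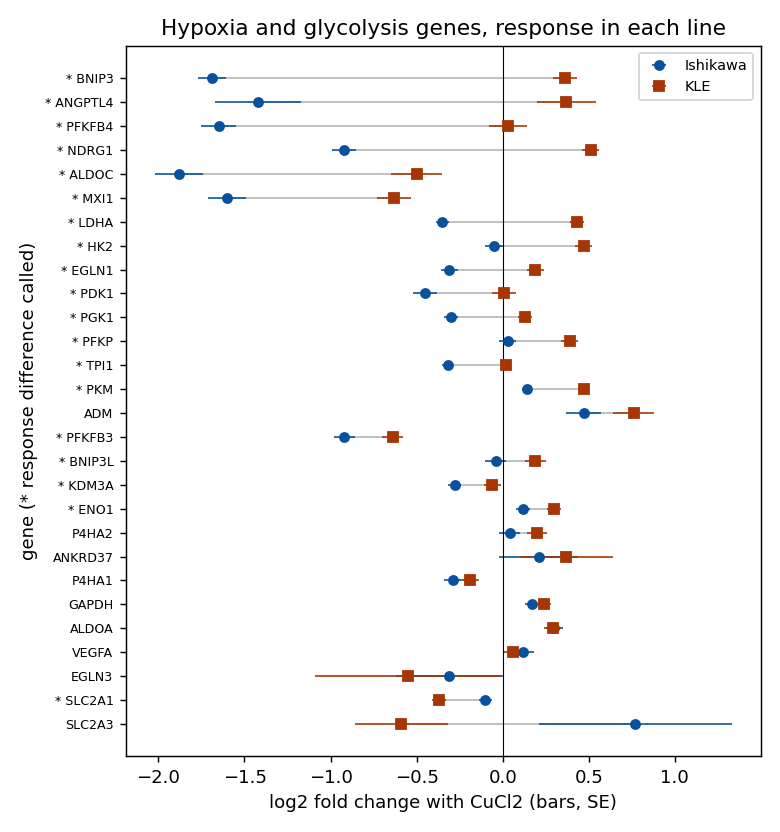
Each row is 1 of the 28 tested members of the hypoxia and glycolysis list, ordered by response difference, with the log2 fold change (bars, SE) in Ishikawa (circles) and KLE (squares); an asterisk marks a called response difference. BNIP3 has the widest gap, and SLC2A1 is the called member whose KLE point lies to the left.

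KRT8 and KRT18, the keratin pair of simple epithelia, were opposite, down in Ishikawa and up in KLE. They were the 2 opposite genes among 27 tested members of the epithelial junction and keratin list. KRT8 had 995, 1045 and 906 CPM untreated and 563, 579 and 592 CPM treated in Ishikawa. It had 1399, 1421 and 1412 CPM untreated and 1745, 1810 and 1844 CPM treated in KLE. Its response was -0.76 ± 0.04 in Ishikawa and 0.35 ± 0.04 in KLE, and that of KRT18 was -0.47 ± 0.05 and 0.31 ± 0.05. The genes lie side by side on chromosome 12 and their annotated spans overlap, so that reads of the pair may not be fully separate. In the whole list 9 rose and 15 fell in Ishikawa, beside 31.4% and 39.9% of all genes tested, and 13 rose and 7 fell in KLE, beside 21.2% and 21.3%. The response difference was called as higher in KLE for 12 and lower for 6, beside 24.6% and 20.8%. KRT19, CLDN4, DSP and DSG2 had called responses of opposite sign that were smaller, such as -0.32 ± 0.05 and 0.23 ± 0.05 for KRT19. KRT23 went the other way: it had 0.48 ± 0.26 in Ishikawa, not called, and fell by 1.90 on the log2 scale in KLE.

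The 7 genes named by the larger of their smaller responses were ELK3, SDC1, PAQR5, OTUB2, NDRG1, STEAP1 and ALDH1A3 among those up in KLE. ELK3 at chr12:96194382-96269835, an ETS factor, had 39.2, 43.1 and 39.8 and 25.8, 27.8 and 25.3 CPM in untreated and treated Ishikawa, and 71.1, 72.2 and 73.9 and 117, 110 and 122 CPM in KLE. The response was -0.63 ± 0.06 in Ishikawa and 0.69 ± 0.05 in KLE. SDC1 at chr2:20200797-20225433, a cell-surface heparan sulfate proteoglycan, had 71, 77.4 and 67.3 and 45.7, 41.9 and 47.2 CPM in Ishikawa, and 67.5, 75.7 and 73 and 114, 102 and 113 CPM in KLE. The untreated lines overlapped for SDC1, and the treated lines stood on opposite sides of them. ALDH1A3, a retinoic acid producing enzyme, fell by 0.94 on the log2 scale in Ishikawa and rose by 0.50 in KLE. PAQR5, a membrane progestin receptor, had responses of -1.32 ± 0.09 and 0.54 ± 0.07. OTUB2, a deubiquitinase, had -0.54 ± 0.10 and 0.69 ± 0.09.

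STEAP1 at chr7:90154375-90164829 belongs to a family of metalloreductases, some of which reduce copper before uptake. Its Ishikawa values were 7.31, 5.85 and 7.77 CPM untreated and 3.34, 3.88 and 3.88 CPM treated, and its KLE values 6.9, 9.03 and 9.39 and 11.4, 12.6 and 12.1 CPM. Its neighbour STEAP2 at chr7:90167590-90238137 moved in Ishikawa alone, with a response of -1.43 ± 0.12 there and -0.22 ± 0.11 in KLE. Its KLE interval passed -0.5 without untreated KLE replicate 1 or 3 or without treated KLE replicate 1. STEAP3 fell in both lines (-1.13 ± 0.07 and -0.25 ± 0.07), and STEAP4 was not called in Ishikawa (-0.47 ± 0.26) and fell by 0.43 on the log2 scale in KLE. In the whole copper transport list of 21 genes, 5 rose and 9 fell in Ishikawa and 4 rose and 5 fell in KLE. These counts lie near the shares of all genes tested, which were 31.4% and 39.9% in Ishikawa and 21.2% and 21.3% in KLE. The importer SLC31A1 rose in Ishikawa (0.24 ± 0.05) and was not called in KLE (0.00 ± 0.05). The exporter ATP7B fell in both (-0.68 ± 0.07 and -0.55 ± 0.08).

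Other genes up in KLE encoded surface receptors and secreted factors; they were picked for mention after their values were seen. EGFR, the epidermal growth factor receptor, had responses of -0.28 ± 0.06 in Ishikawa and 0.52 ± 0.05 in KLE. DKK1, a secreted WNT inhibitor, rose from 1.55, 1.45 and 2.38 CPM to 11.6, 8.56 and 11.5 CPM in KLE and fell from 0.921, 1.15 and 1.81 CPM to 0.656, 0.764 and 0.805 CPM in Ishikawa. SEMA3C, a secreted semaphorin, rose by 1.42 in KLE and fell by 0.32 on the log2 scale in Ishikawa. DKK1 and SEMA3C kept their class under 15 of 22 alternatives and EGFR under 14, with the same signs in all 22. RGCC, a cell cycle regulator, and GALNT5, a mucin-type glycosyltransferase, were the 2 genes up in KLE whose responses both reached 1, at -1.10 ± 0.32 and 1.26 ± 0.20 for RGCC and -1.86 ± 0.44 and 1.04 ± 0.31 for GALNT5. GALNT5 was at most 2.43 CPM in any library.

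**Figure D3:**
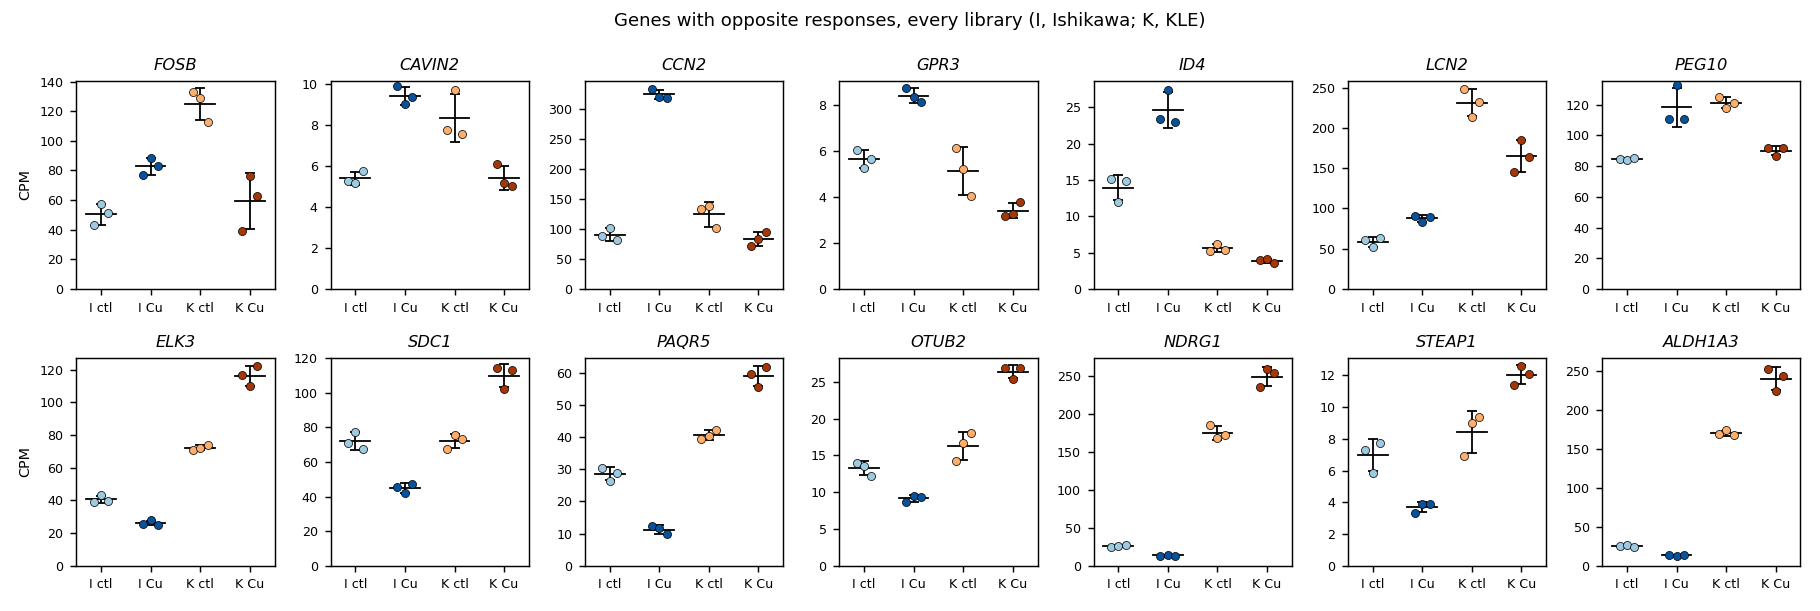
Each panel is 1 gene of the opposite classes, with the CPM of every library as points and the mean ± SD (n = 3) as bars; I is Ishikawa, K is KLE, ctl is untreated and Cu is 200 µM CuCl2. In the first row the copper points are higher in Ishikawa and lower in KLE, as for CCN2, and in the second row the reverse holds, as for NDRG1.

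The genes up in Ishikawa and down in KLE included growth factor, matrix and signalling genes. CCN2 at chr6:131948176-131951373, a matricellular factor induced by TGF-beta and by YAP, had 88.4, 102 and 81.9 CPM untreated and 334, 321 and 319 CPM treated in Ishikawa. In KLE it had 134, 138 and 101 CPM untreated and 72.4, 83.4 and 94.5 CPM treated. The treated Ishikawa libraries stood above all others, and the treated KLE libraries lay below the untreated ones. Its responses were 1.83 ± 0.13 and -0.58 ± 0.14, with a difference of -2.41 ± 0.19 (edgeR adjusted p = 1.0e-05). With each line fitted on its own the KLE fall was -0.58 and was not called (edgeR adjusted p = 0.0537).

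FOSB at chr19:45467995-45475179, an AP-1 subunit of the immediate-early response, had 42.9, 57.1 and 51.5 CPM untreated and 76.8, 88.6 and 82.8 CPM treated in Ishikawa. In KLE it had 133, 129 and 113 CPM untreated and 39.1, 76.6 and 63.1 CPM treated. Its responses were 0.70 ± 0.22 and -1.07 ± 0.21. Without untreated Ishikawa replicate 1 the Ishikawa response was 0.60 and was not called (edgeR adjusted p = 0.0585). Among the 25 immediate-early genes, 17 rose and 2 fell in Ishikawa and 11 rose and 7 fell in KLE (all genes tested: 31.4% and 39.9%, 21.2% and 21.3%). A response difference lower in KLE was called for 17 and a higher one for 2, beside 20.8% and 24.6%. FOS and EGR2 fell in KLE (-1.33 ± 0.17 and -1.42 ± 0.38) and were not called in Ishikawa (0.25 ± 0.17 and 0.25 ± 0.34). IER2 had called responses of opposite sign, 0.24 ± 0.09 and -0.30 ± 0.09. ZFP36 and JUNB moved in Ishikawa alone.

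GDF15, a stress-induced cytokine, lay at 35.5, 34.9 and 30.2 CPM untreated and 39.7, 45.9 and 40.1 CPM treated in Ishikawa. It lay at 43, 34.2 and 39.5 CPM untreated and 18.7, 24 and 20.1 CPM treated in KLE. Its responses were 0.32 ± 0.09 and -0.89 ± 0.10, and the Ishikawa one was 0.22, under the size minimum, with library totals as the scale. The iron-binding secreted protein LCN2 had 60.8, 51.7 and 63 and 91, 82.6 and 89.2 CPM in Ishikawa and 248, 214 and 232 and 145, 185 and 164 CPM in KLE, with responses of 0.59 ± 0.10 and -0.49 ± 0.09. MUC20, a cell-surface mucin, had 0.50 ± 0.10 and -0.35 ± 0.08. Of the 16 mucin and secretory genes, 5 rose and 7 fell in Ishikawa and 1 rose and 11 fell in KLE (all genes tested: 31.4% and 39.9%, 21.2% and 21.3%). The response difference was called as lower in KLE for 11 members and higher for 0 by edgeR, DESeq2 and limma-voom (1 at an unadjusted edgeR p under 0.05). The secreted mucin MUC5AC fell by 0.93 on the log2 scale in KLE and was not called in Ishikawa (0.06 ± 0.07).

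ID4, an inhibitor of basic helix-loop-helix factors, had responses of 0.84 ± 0.11 and -0.55 ± 0.15. PEG10, an imprinted retrotransposon-derived gene, had 0.49 ± 0.06 and -0.43 ± 0.06. CAVIN2, a caveolar coat protein, had 0.81 ± 0.13 and -0.62 ± 0.14, and GPR3, an orphan receptor of the cyclic AMP pathway, had 0.58 ± 0.15 and -0.59 ± 0.17. Without untreated KLE replicate 1 the KLE response of GPR3 was -0.45 and was not called (edgeR adjusted p = 0.0552). Of the 20 TGF-beta and BMP genes, 8 rose and 6 fell in Ishikawa and 4 rose and 7 fell in KLE, with a response difference lower in KLE for 7 and higher for 2. Over all genes tested the shares were 31.4% and 39.9%, 21.2% and 21.3%, and 20.8% and 24.6%, so that the list's 4 rises in KLE, for one, lie near the background. CCN2, ID4 and the ligand TGFB2 (0.26 ± 0.09 and -0.62 ± 0.13) were opposite. SERPINH1, a collagen chaperone outside that list and mentioned after its values were seen, had 0.33 ± 0.05 and -0.36 ± 0.05. With library totals as the scale the Ishikawa responses of TGFB2 and SERPINH1 were 0.16 and 0.23, under the size minimum, and that of TGFB2 was not called (edgeR adjusted p = 0.125). Without untreated Ishikawa replicate 2 the Ishikawa response of TGFB2 was 0.20 and was not called (edgeR adjusted p = 0.0729), and without untreated Ishikawa replicate 3 it was 0.23.

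OGN, CDH5 and PAEP were the 3 genes up in Ishikawa whose responses both reached 1, and none exceeded 1.94 CPM in any library. OGN, a matrix proteoglycan, had 0.527, 0.0764 and 0.422 CPM untreated and 0.775, 0.529 and 1.17 CPM treated in Ishikawa, and 0.704, 1.45 and 1.41 and 0.56, 0.531 and 0.206 CPM in KLE. CDH5 and VWF are markers of endothelial cells, and THBS2 is a matrix gene mentioned after its values were seen. VWF had responses of 1.42 ± 0.22 and -0.83 ± 0.29. The KLE fall of VWF was not called without untreated KLE replicate 3 (-0.67), treated KLE replicate 2 (-0.71) or treated KLE replicate 3 (-0.57). THBS2 had 0.97 ± 0.35 and -0.94 ± 0.34; its Ishikawa rise was not called without untreated Ishikawa replicate 1 (0.82), untreated Ishikawa replicate 2 (0.84) or treated Ishikawa replicate 1 (0.84), and its KLE fall was not called without untreated KLE replicate 3 (-0.68), treated KLE replicate 2 (-0.89) or treated KLE replicate 3 (-0.86). Fibroblast markers (DCN, LUM, COL1A1, COL1A2, COL3A1 and PDGFRB) were also present in these cultures. Their sum was 10.9 to 46.0 CPM in untreated and 23.1 to 58.2 CPM in treated Ishikawa libraries, and 32.7 to 64.7 and 24.8 to 42.3 CPM in KLE. DCN and LUM were at 0 in 1 untreated Ishikawa library and in no other. None of 9 fibroblast markers tested was called in either line by edgeR, DESeq2 or limma-voom (0 at an unadjusted edgeR p under 0.05), and their median response was 0.56 in Ishikawa and -0.56 in KLE. Of 4 endothelial markers tested, VWF and CDH5 were opposite, and PECAM1 (-0.05 ± 0.31 and -0.36 ± 0.26) and KDR (0.65 ± 0.58 and -0.19 ± 0.39) were called in neither line. Summed PECAM1, VWF and CDH5 ran from 4.36 to 6.14 CPM in untreated and 8.58 to 13.8 CPM in treated Ishikawa libraries. In KLE the sum ran from 6.41 to 9.9 and 5.5 to 5.66 CPM, with no overlap in either line. Over all genes tested the libraries did not overlap for 71.9% in Ishikawa and 55.3% in KLE. VWF and CDH5 were counted as opposite in these same libraries, so the sum partly restates that choice and is no separate evidence. In TPM the untreated and treated ranges of PECAM1, which was not so chosen, overlapped in both lines. Summed leukocyte markers (PTPRC, CD3E, CD14 and LYZ) ran from 0.688 to 1.51 and 2.05 to 3.41 CPM in Ishikawa and from 1.09 to 1.61 and 0.756 to 1.31 CPM in KLE. The globins HBB and HBA1 together ran from 0.0658 to 0.663 and 1.13 to 3.07 CPM in Ishikawa and from 1.06 to 1.58 and 0 to 1.06 CPM in KLE. CD3E was at 0 in 1 untreated Ishikawa library, 1 untreated KLE library and 2 treated KLE libraries, and both globins were at 0 in 1 treated KLE library and 1 of the 2 in 2 untreated Ishikawa libraries. Of 4 tested members of the leukocyte and globin list, PTPRC, CD68 and HBA1 rose in Ishikawa and CD68 rose in KLE; the response difference was called for HBA1 (-3.60 ± 1.05), which may share reads with its near-identical copy HBA2. The part of all these markers in the results for OGN, CDH5, PAEP, THBS2, VWF and SOX18, an endothelial factor described further on, was not tested. OGN kept its class under 14 of 22 alternatives, CDH5 under 13 and PAEP under 15, and each lost it without untreated KLE replicate 2 or 3. OGN and PAEP also lost it without untreated Ishikawa replicate 2 (Ishikawa responses of 0.76 and 1.67) or treated Ishikawa replicate 3 (1.11 and 1.71), OGN without treated KLE replicate 3 (KLE response of -1.12), and CDH5 without treated Ishikawa replicate 1 (Ishikawa response of 1.32) or treated KLE replicate 1 or 2 (KLE responses of -1.17 and -1.21). Without untreated KLE replicate 3 the KLE responses were -1.31, -1.21 and -1.13 and were not called (edgeR adjusted p = 0.0881, 0.0624 and 0.0591).

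The 53 genes that rose in Ishikawa alone included immediate-early, stress and NF-kB genes. Of the 22 NF-kB and inflammation genes tested, 19 rose and 1 fell in Ishikawa, and 7 rose and 2 fell in KLE (all genes tested: 31.4% and 39.9%, 21.2% and 21.3%). The response difference was called as lower in KLE for 19, beside 20.8% of all genes tested, and higher for 0 by edgeR, DESeq2 and limma-voom (0 at an unadjusted edgeR p under 0.05). The median response was 1.49 in Ishikawa and 0.17 in KLE. IER3, a survival gene induced by NF-kB, had 3.62, 4.43 and 6.14 CPM untreated and 14, 16.2 and 15.2 CPM treated in Ishikawa, and 24.8, 23.5 and 24.7 and 23.4, 28.6 and 27.3 CPM in KLE. All Ishikawa libraries stayed below the KLE ones. Its KLE interval ran from -0.10 to 0.34. BIRC3, an inhibitor of apoptosis, had 1.15 ± 0.12 in Ishikawa and -0.13 ± 0.11 in KLE, and TNFAIP2 had 1.04 ± 0.05 and -0.08 ± 0.05. Without untreated Ishikawa replicate 1 the Ishikawa response of TNFAIP2 was 0.99, just under the minimum of 1.

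Not every member of that list behaved so. CXCL8, TNFAIP3 and PTGS2 rose in both lines, with 5.18 ± 0.15 and 1.40 ± 0.13 for the chemokine CXCL8. NFKBIA, the inhibitor of NF-kB, was not called in Ishikawa (0.15 ± 0.07) and fell by 0.41 on the log2 scale in KLE. ICAM1, an adhesion molecule, had called responses of 0.25 ± 0.10 and -0.56 ± 0.11, just outside the opposite class.

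The heat shock co-chaperone BAG3, mentioned after its values were seen, rose in Ishikawa alone: it had 202, 195 and 197 CPM untreated and 507, 553 and 514 CPM treated there, and 353, 338 and 341 and 347, 336 and 348 CPM in KLE. ZFP36, which speeds the decay of AU-rich mRNAs, had 1.45 ± 0.09 and 0.21 ± 0.10. JUNB, an AP-1 subunit, had 1.29 ± 0.12 and 0.04 ± 0.12. SERPINB9, an inhibitor of granzyme B, had 10.7, 10.2 and 10.3 and 29.4, 36.8 and 32 CPM in Ishikawa and 13.7, 14.5 and 14.1 and 16, 15.5 and 16.4 CPM in KLE. SKIL, a brake on SMAD signalling, had 1.06 ± 0.05 and 0.07 ± 0.06. The zinc finger genes ZNF669 and ZNF165 had 1.49 ± 0.10 and 1.44 ± 0.09 in Ishikawa, with KLE intervals from -0.04 to 0.44 and from 0.00 to 0.36. The KLE responses of ZFP36 (0.29) and ZNF165 (0.24) were called without treated KLE replicate 1, and that of ZNF669 (0.36) without untreated KLE replicate 2, so that a small rise in KLE is not set aside for these 3 genes. Nor is it for SERPINB9, whose treated KLE libraries all lay above the untreated ones, with a KLE interval from -0.02 to 0.37. In either direction, the KLE libraries were apart for 8 of the 53 genes up and 25 of the 115 genes down in Ishikawa alone, beside 55.3% of all genes tested. ZFP36 was also called in KLE (0.21) without untreated Ishikawa replicate 2, and without treated KLE replicate 3 the KLE interval of ZNF669 reached past 0.5. Of 484 tested genes with ZNF symbols, a set counted after the values were seen, 172 rose and 160 fell in Ishikawa, and 41 rose and 140 fell in KLE. Over all genes tested the shares were 31.4% and 39.9% in Ishikawa and 21.2% and 21.3% in KLE.

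Of the integrated stress response genes, which ATF4 drives when translation initiation is restrained, 19 of 28 rose and 6 fell in Ishikawa, and 9 rose and 7 fell in KLE, beside 31.4% and 39.9% of all genes tested in Ishikawa and 21.2% and 21.3% in KLE. The response difference was lower in KLE for 15 and higher for 4, beside 20.8% and 24.6%. DDIT3, the CHOP factor, had 15.5, 18.7 and 18.3 CPM untreated and 41.9, 39.1 and 41.5 CPM treated in Ishikawa, and 16.8, 11.6 and 15.2 and 14.9, 17.1 and 16.2 CPM in KLE. The Ishikawa groups did not overlap, and the KLE groups did. The KLE interval of DDIT3 passed 0.5 without untreated KLE replicate 1. TRIB3, a pseudokinase that acts downstream of CHOP, had 1.28 ± 0.10 and 0.11 ± 0.09. ASNS and NUPR1 rose in Ishikawa (0.75 ± 0.08 and 0.93 ± 0.14) and were not called in KLE (-0.03 ± 0.08 and -0.40 ± 0.18). ATF3, SESN2 and PPP1R15A rose in both lines.

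**Figure D4:**
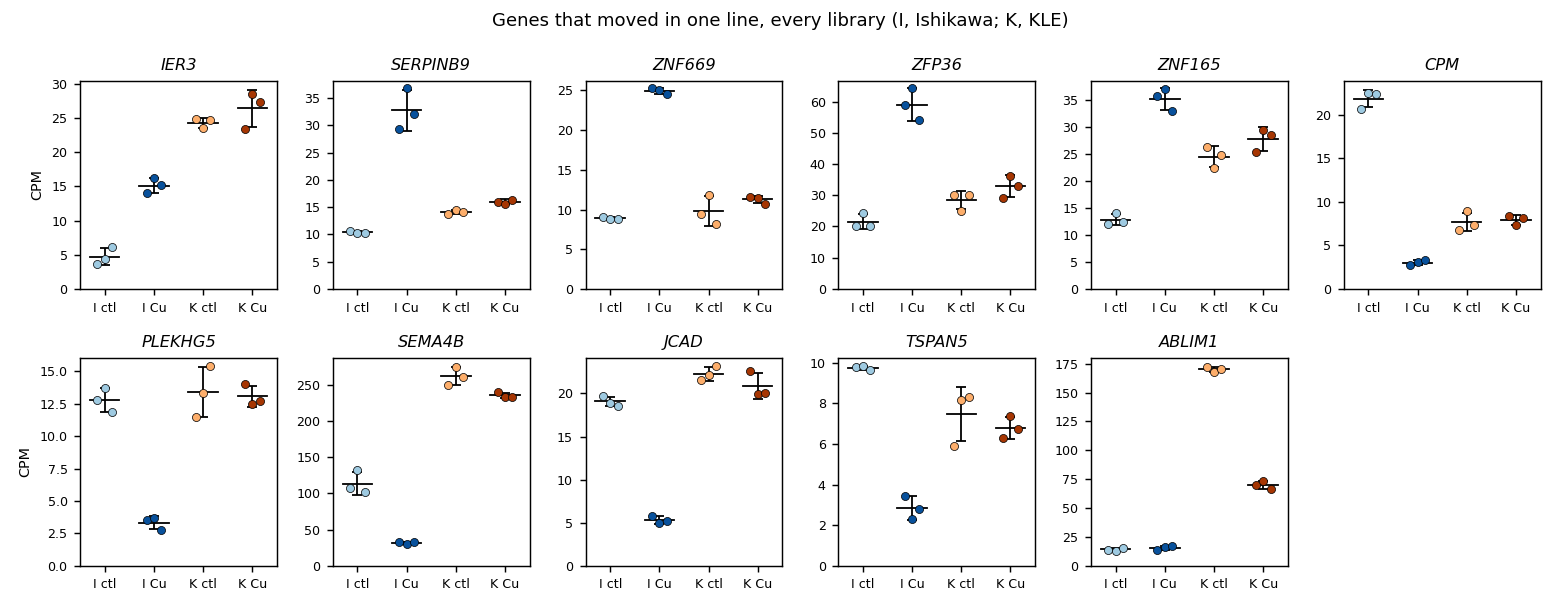
Each panel is 1 gene of the classes that moved in one line, with the CPM of every library as points and the mean ± SD (n = 3) as bars; I is Ishikawa, K is KLE, ctl is untreated and Cu is 200 µM CuCl2. The gene CPM encodes carboxypeptidase M and shares its name with the unit; its treated Ishikawa points sit at 2.74 to 3.29, below the other groups, and ABLIM1 is the panel where KLE alone moved.

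Among the 115 genes that fell in Ishikawa alone, the gene encoding carboxypeptidase M (symbol CPM, at chr12:68842197-68971570) had the largest response of those named by the rule. It had values of 20.7, 22.5 and 22.4 untreated and 2.74, 3.05 and 3.29 treated in Ishikawa, and 6.83, 8.91 and 7.33 untreated and 8.34, 7.3 and 8.18 treated in KLE. Its response was -2.86 ± 0.13 in Ishikawa, and its KLE interval ran from -0.21 to 0.30. PLEKHG5 had -1.93 ± 0.14 and -0.04 ± 0.12. SEMA4B, a transmembrane semaphorin, had 107, 132 and 102 and 32.4, 30.7 and 33.1 CPM in Ishikawa and 250, 275 and 261 and 240, 233 and 233 CPM in KLE. A small KLE fall of SEMA4B was called without untreated Ishikawa replicate 2 (-0.16) or 3 (-0.15), with separate fits per line (-0.15) and with upper-quartile factors (-0.19). JCAD, a junction protein, had -1.83 ± 0.10 and -0.10 ± 0.08, and TSPAN5, a tetraspanin, had -1.78 ± 0.16 and -0.14 ± 0.15. The KLE interval of TSPAN5 passed -0.5 without untreated KLE replicate 1 or treated KLE replicate 2. The receptor tyrosine kinase KIT, mentioned after its values were seen, had -2.16 ± 0.25 in Ishikawa and -0.02 ± 0.13 in KLE.

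Notch is a receptor cut upon ligand binding, after which its inner part acts in the nucleus on HES, HEY and NRARP. Of 20 genes of the pathway, 2 rose and 12 fell in Ishikawa and 3 rose and 7 fell in KLE, with a response difference higher in KLE for 10 and lower for 2. The shares over all genes tested were 31.4% and 39.9% in Ishikawa, 21.2% and 21.3% in KLE, and 24.6% and 20.8% for the difference. The receptor NOTCH1 was opposite, at 30.1, 30.8 and 25.6 and 23.3, 22.1 and 21.8 CPM in Ishikawa and 14.9, 14.6 and 17.1 and 19.2, 17.5 and 20.4 CPM in KLE. Its KLE rise was not called without untreated KLE replicate 1 (0.27), untreated KLE replicate 2 (0.25) or treated KLE replicate 3 (0.24). The target HES1 fell in Ishikawa alone, from 80.8, 106 and 85.4 CPM to 36.9, 34.8 and 35.4 CPM, beside 52.5, 51.6 and 55.7 and 44.3, 54.1 and 40.9 CPM in KLE. HES1 was called as falling in KLE too, by 0.32, without treated KLE replicate 2 and, by 0.20, without untreated Ishikawa replicate 2. Without untreated KLE replicate 2 its KLE interval passed -0.5. NRARP, a target and feedback inhibitor, went the other way there, from 55.9, 57.1 and 62.6 CPM to 128, 125 and 126 CPM, and had 16.5, 17 and 15.9 and 15.9, 14.2 and 16.7 CPM in KLE. The ligand DLL1 rose in both lines (6.22 ± 0.11 and 2.62 ± 0.15).

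Only 6 genes moved in KLE alone, and ABLIM1 was the one that met the naming rule. ABLIM1 at chr10:114431113-114685003, an actin-binding LIM protein, had 172, 168 and 170 CPM untreated and 70.4, 73.7 and 66.7 CPM treated in KLE. In Ishikawa it had 14, 13.2 and 15.8 and 13.8, 16 and 16.8 CPM. The KLE groups were far apart, and the Ishikawa groups overlapped, with an interval from -0.06 to 0.30. Without treated Ishikawa replicate 1 the Ishikawa response was 0.25 and was called (edgeR adjusted p = 0.0181). The other 5 are named after their values were seen. CP, which encodes the copper-carrying ferroxidase ceruloplasmin and lies at chr3:149162410-149222055, had 5, 4.73 and 4.24 CPM untreated and 1.06, 1.06 and 0.963 CPM treated in KLE, and 14.8, 14.6 and 15.4 and 13.8, 13.3 and 15.4 CPM in Ishikawa. Its response was -2.17 ± 0.18 in KLE and -0.08 ± 0.10 in Ishikawa, and it kept its class under all 22 alternatives. CCDC146, TUBA8 and RASSF9 fell in KLE by 1.44, 1.14 and 1.02 on the log2 scale. PRSS22, a serine protease, was the single gene that rose in KLE alone, from 4.23, 5.09 and 5.98 CPM to 9.95, 11.1 and 11.7 CPM. The response difference of RASSF9 (-0.83) was not called under several alternatives, DESeq2 among them (-0.88, adjusted p = 0.0865), and the Ishikawa interval of PRSS22 passed 0.5 in DESeq2 and limma-voom. PRSS22 also left its class without any 1 of 6 libraries, RASSF9 without any 1 of 7, and TUBA8 without treated Ishikawa replicate 3 or treated KLE replicate 1 (KLE response of -0.95).

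In the near-silent class ACTC1, the cardiac actin gene, had 0 counts in all 3 untreated Ishikawa libraries and 396 in the treated ones, which is at least 150-fold higher when the untreated group is set to a floor of 3 counts over the group (counting error only). It had 2 counts in untreated and 7 in treated KLE libraries. NPPC, a natriuretic peptide gene, and SOX18, an endothelial transcription factor, each had 5 counts in untreated and 310 in treated Ishikawa libraries, a ratio of 70.7 in library shares. In KLE, NPPC had 8 and 23 counts and SOX18 had 11 and 43. SOX18 and NPPC were called as risen in KLE too (1.95 ± 0.44 and 1.50 ± 0.47), at levels under 1 CPM on average. SMR3B, a salivary protein gene, fell in KLE from 24.2, 21 and 24.8 CPM to 3.92, 5.18 and 3.85 CPM, and SYBU, a syntaphilin-like transport protein, rose by 1.09 on the log2 scale. The response difference of SYBU, 1.21, was not called without untreated Ishikawa replicate 3 (0.99), treated Ishikawa replicate 2 (0.86), untreated KLE replicate 3 (1.05) or treated KLE replicate 3 (1.14).

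The lists of histone and mitochondrial transcripts had no member in the opposite class. That class held 1.01% of all genes tested, so by that share alone lists of this size could hold none. Of the 14 replication-dependent histone genes tested, 9 rose in Ishikawa and 1 rose in KLE, beside 31.4% and 21.2% of all genes tested, and 0 fell in either line by edgeR (0 and 1 at an unadjusted p under 0.05; 0 and 1 by DESeq2, 0 and 0 by limma-voom). The median response was 1.23 against -0.06, and the response difference was lower in KLE for 7, beside 20.8% of all genes tested. The libraries were made from poly(A)-selected RNA, in which these mRNAs, which mostly lack a poly(A) tail, are measured in part. Of the 13 mitochondrially encoded respiratory chain genes, 2 rose and 1 fell in Ishikawa, beside 31.4% and 39.9% of all genes tested. In KLE 8 of them fell, beside 21.3%. There 0 rose by edgeR, DESeq2 and limma-voom (0 at an unadjusted edgeR p under 0.05), beside 21.2%. MT-ND1 rose in Ishikawa (0.42 ± 0.09) and was not called in KLE (-0.17 ± 0.09), and MT-CO3 fell in KLE (-0.63 ± 0.09) and was not called in Ishikawa (-0.03 ± 0.09). Of 38 nuclear oxidative phosphorylation genes, 11 rose and 10 fell in Ishikawa, beside 31.4% and 39.9% of all genes tested. In KLE 1 rose and 2 fell, beside 21.2% and 21.3%. Their median response difference was -0.01, beside 0.03 over all genes tested. Of 30 cytosolic ribosomal protein genes, 0 had a response difference called by edgeR (4 at an unadjusted p under 0.05), 6 by DESeq2 and 1 by limma-voom. Over all genes tested edgeR called it for 45.4%. The plot of list medians sets these groups side by side.

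**Figure D5:**
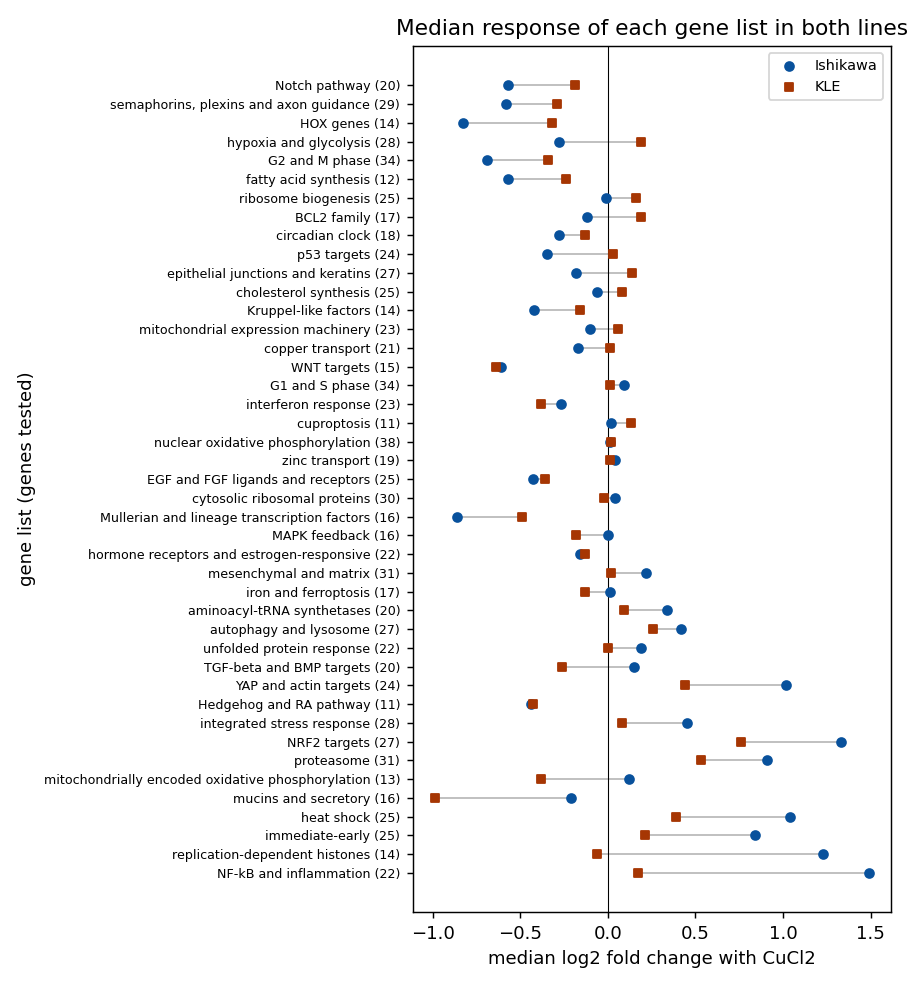
Each row is a gene list with at least 10 members tested (number in parentheses), ordered by median response difference, with the median log2 fold change in Ishikawa (circles) and KLE (squares). The hypoxia and glycolysis medians lie on opposite sides of 0 (-0.28 and 0.19), and the NF-kB list shows the widest gap (1.49 and 0.17).

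Motifs were counted in the 250 bases before the start of the genes, on both strands, as a description. The AP-1 letters TGANTCA were in 13.3% of the 30 matched promoters of genes up in Ishikawa and down in KLE, in 4.88% of the 82 of the reverse class, in 11.4% of the 44 of genes up in Ishikawa alone, and in 3.99% of genes tested. The CCAAT letters were in 22.0% of the promoters of genes up in KLE and down in Ishikawa and in 17.2% of those down in Ishikawa alone, beside 35.3% of genes tested. The metal response letters TGCACNC or TGCGCNC were in 36.7% and 31.7% of the opposite classes, beside 33.4% of genes tested. The heat shock letters GAANNTTC or TTCNNGAA were in 18.2% of promoters of genes up in Ishikawa alone and in 3.33% and 6.1% of the opposite classes, beside 8.66% of genes tested. The antioxidant letters TGACNNNGC were in 16.7% and 9.76% of the opposite classes, beside 11.8%. The p53 decamer was in 11.4% of promoters of genes up in Ishikawa alone and in 3.33% and 3.66% of the opposite classes, beside 4.54%. The cyclic AMP, amino acid and E2F letters (TGACGTCA, TGATGNAAN and TTTCCCGC) were each in 0% to 3.66% of the promoters of the opposite classes. Beside these stand 2.86%, 1.36% and 2.23% of genes tested, in that order. No test was made on any of these shares. Classes of this size hold few promoters per motif, 4 of 30 in the first case.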

How the data were processed

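Poly(A)-enriched RNA of 12 libraries was sequenced as paired-end reads of 150 bp per the labels. The submitters' processing notes list build GRCh38.p14 and, with no role for any tool, HISAT2 2.1.0, Bowtie2 2.2.8, RSEM, fastp 0.18.0, R 4.2.2 and DESeq2. No annotation release is given in the sources used here. Per the file headers, the deposited all-genes table holds estimated (expected) counts per gene and TPM. Each line also has a deposited count table, in which the expected counts are rounded to whole numbers (0 values differ), and a deposited table that is named after FPKM but whose headers say TPM.

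Expected counts were rounded, filtered with filterByExpr, scaled with TMM factors and fitted with edgeR 4.0.16 (robust quasi-likelihood, 4 groups, no intercept, all 12 libraries) in R 4.3.3. P-values were adjusted by Benjamini-Hochberg over 13663 genes, two-sided. The SE of a log2 fold change is its size over the square root of F, which is too small where counts are few. CPM values are counts scaled to the library total times its TMM factor. The members and gene lists were chosen with earlier results of these data known.

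Named genes were protein-coding with at least 5 CPM in a group of each line (of the moving line only, for the near-silent class) and treated libraries apart from untreated ones in each line called: 7 per opposite direction by the smaller response, 5 per one-line class, 3 per near-silent class, and up to 3 members of each list with at least 3 opposite or one-line members. This gave 44 genes. Genes named outside it are marked in the text, are members of a list described there, or met or lay beside a size limit stated there. Gene positions come from GENCODE release 29 (GRCh38), which matched 20089 of 20332 genes. The counting is not stated to use strand, so overlapping genes may share reads. Alternatives used DESeq2 1.42.0, limma 3.58.1 (voom, and log2 of TPM plus a pseudocount of 1), other scalings and filters, and each library left out. The fits were tested on simulated data.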

Additional observations from a re-analysis of the deposited data

Results flagged for a closer look

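The response to copper differed between the lines, by the edgeR test of the response difference itself, for each of the 44 named genes; the values are KLE minus Ishikawa on the log2 scale. Since the genes were chosen for such a difference, their values describe the classes and are no separate evidence for them. Among genes up in Ishikawa and down in KLE the difference was -2.41 for CCN2, -1.77 for FOSB, -1.43 for CAVIN2, -1.38 for ID4, -1.21 for GDF15, -1.17 for GPR3, -1.08 for LCN2, -0.92 for PEG10 and -0.85 for MUC20. Among genes down in Ishikawa and up in KLE it was 2.05 for BNIP3, 1.86 for PAQR5, 1.44 for ALDH1A3, 1.43 for NDRG1, 1.41 for STEAP1, 1.32 for ELK3, 1.29 for SDC1, 1.23 for OTUB2 and 0.66 for NOTCH1.

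Genes that rose in Ishikawa alone had differences of -1.56 for IER3, -1.48 for SERPINB9, -1.29 for ZNF669, -1.28 for BIRC3, -1.26 for ZNF165, -1.25 for JUNB, -1.23 for ZFP36, -1.19 for NRARP, -1.16 for TRIB3, -1.13 for TNFAIP2, -1.07 for DDIT3 and -0.99 for SKIL. Genes that fell there alone had 2.90 for carboxypeptidase M (CPM), 1.89 for PLEKHG5, 1.74 for JCAD, 1.68 for SEMA4B, 1.67 for PFKFB4, 1.63 for TSPAN5, 1.21 for STEAP2 and 1.16 for HES1. ABLIM1, which fell in KLE alone, had -1.40. The near-silent genes had fitted values of -8.45 for ACTC1, -4.62 for NPPC, -4.19 for SOX18, -1.63 for SMR3B and 1.21 for SYBU; that of ACTC1 rests on a group with 0 counts and is no bound.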

How the results depend on the processing

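Over 22 refits the response difference of the 44 named genes kept its direction and its call in 963 of 968 cases. The other 5 were SYBU, at 1.17 in DESeq2 and 0.86 to 1.14 with a library left out. The separate fits per line refitted only the responses and kept the main fit's difference, so their cases agree by construction. The named genes were also chosen for a called difference. The classes moved more than the differences, since they also depend on size limits. Of the 38 genes up in Ishikawa, 7 kept their class in all 22 refits, and of the 100 up in KLE, 39 did; the signs held for 31 and 98. Of genes in Ishikawa alone, 12 of 53 up and 20 of 115 down kept their class.

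With limma on log2(TPM + 1) there were 24 opposite genes up in Ishikawa, and 4 genes up and 3 down in KLE alone. Genes up in KLE alone numbered 2 with library totals, 2 with no count filter, 0 with limma-voom and 0 with separate fits per line. With no minimum size there were 98 opposite genes up in Ishikawa and 220 up in KLE, with a minimum of 0.5 there were 16 and 14, and with 1 there were 3 and 2. With the other line's interval held within 0.25 the classes up and down in Ishikawa alone and up and down in KLE alone held 17, 13, 0 and 0 genes. With a minimum of 0.5 in the moving line they held 373, 728, 46 and 30, and with no limit on the other line's interval 143, 251, 8 and 28.

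Leaving out each library in turn gave 5598 to 6530 response differences (2590 to 3529 higher in KLE, 2582 to 3122 lower), 26 to 53 opposite genes up in Ishikawa and 76 to 108 up in KLE, 51 to 71 up and 76 to 139 down in Ishikawa alone, and 0 to 2 up and 4 to 8 down in KLE alone. The median response in Ishikawa was -0.067 with TMM, -0.012 with RLE and -0.164 with library totals, so responses near 0.25 can cross the limit with the scale. The KLE median stayed within -0.043 and 0.010. Response differences higher and lower in KLE numbered 3358 and 2848 with TMM and 2942 and 3196 with RLE. They numbered 4151 and 2349 with library totals and 2524 and 2947 in DESeq2. The shares of 24.6% and 20.8% set beside the lists are therefore those of the TMM scale. Genes down in Ishikawa alone numbered 92 with RLE, 80 in DESeq2 and 147 with library totals.

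Deviations of same-numbered control and copper libraries correlated at 0.0675, 0.192 and 0.0942 in Ishikawa and at -0.0822, -0.036 and -0.0974 in KLE. Differently numbered libraries had -0.163 to 0.0762 in Ishikawa and 0.00136 to 0.0809 in KLE. Each untreated Ishikawa library correlated best, though weakly, with its same-numbered copper library, and no untreated KLE library did. The main fit did not use the numbers as pairs. With the replicate block there were 6144 response differences, 44 and 100 opposite genes, 57 up and 113 down in Ishikawa alone, and 2 up and 4 down in KLE alone; with it the KLE falls of CCN2 (-0.57, edgeR adjusted p = 0.0619) and THBS2 (-0.92, edgeR adjusted p = 0.0548) and the response difference of RASSF9 (-0.84, edgeR adjusted p = 0.0533) were not called. Depth limits genes under about 1 CPM, where a library holds few reads.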
